A study of Catharanthus roseus with 15 samples.

Results

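PRX1 (CRO_011338), 1 of the 33829 genes of the count table, was followed through all 15 libraries and 5 groups of leaf RNA from Catharanthus roseus (Madagascar periwinkle). Its row was found by the gene identifier, with earlier results of these data known. PRX1 is a class III peroxidase of the vacuole that couples catharanthine with vindoline to form anhydrovinblastine, the precursor of the anticancer bisindole alkaloids vinblastine and vincristine. Catharanthine and vindoline are made by separate branches of the monoterpenoid indole alkaloid pathway, which are known to lie in different cells of the leaf. PRX1 therefore stands at the point where the branches meet.

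The study asked how ethylene and jasmonate signals act on this pathway. Seedlings of the cultivar Vitae Rose Red were sprayed with 100 µM ethephon (ETH), which releases ethylene inside the plant, or with 100 µM methyl jasmonate (MJ), and leaves were sampled 3 h or 24 h later. Each treated group (ETH 3 h, ETH 24 h, MJ 3 h, MJ 24 h) and the 0 h control held 3 libraries. By the sample labels the seedlings were 2 weeks old, and by the methods 4 weeks old. The 3 libraries of the 0 h control served every comparison with 0 h, and libraries from plants sprayed with water were not used here, so hormone, time after spraying and time of day cannot be told apart in those comparisons. The number of plants behind each library was not known, and the p-values measure the spread between these libraries.

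The only stretches of PRX1 sequence at hand were the primers of the quantitative PCR assay that the study designed for its transcript. They are shown because they are the study's own probe for the transcript it calls PRX1, and their match to CRO_011338 was not tested. Each has 20 bases, is written from 5′ to 3′ in lower case, and carries no capitals because no part of it is singled out.
PRX1-F: attcaaggtgccctgacttg
PRX1-R: tgacggagagtcaagttagg
The position of CRO_011338 in the genome and its protein sequence are not given in the sources used here.

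PRX1 was a well-covered transcript. Between 4358 and 20024 reads were assigned to it per library, out of totals of 23710688 to 31168281. Its level averaged 426 ± 139 counts per 1000000 reads (CPM, scaled by the TMM method; SD, n = 15), and the highest library exceeded the lowest 3.63-fold. Counting error was small beside this range. In the library with the fewest PRX1 reads, the 95% Clopper-Pearson interval ran from 168.7 to 179.1 CPM when scaled by the library total alone, and such intervals cover counting error only.

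In the 0 h control, PRX1 stood at 322, 416 and 196 CPM in replicates 1, 2 and 3. In ETH 3 h it stood at 339, 546 and 614 CPM. In ETH 24 h it stood at 456, 529 and 481 CPM. The ETH 24 h libraries lay close together and all of them lay above the highest 0 h library, whereas the first library of ETH 3 h fell inside the range of the controls. In MJ 3 h the values were 299, 711 and 445 CPM, and in MJ 24 h they were 250.2, 353 and 434 CPM. MJ 3 h held the highest library of the series, and the lowest was the third library of the 0 h control. Both MJ groups overlapped with the controls.

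**Figure D1:**
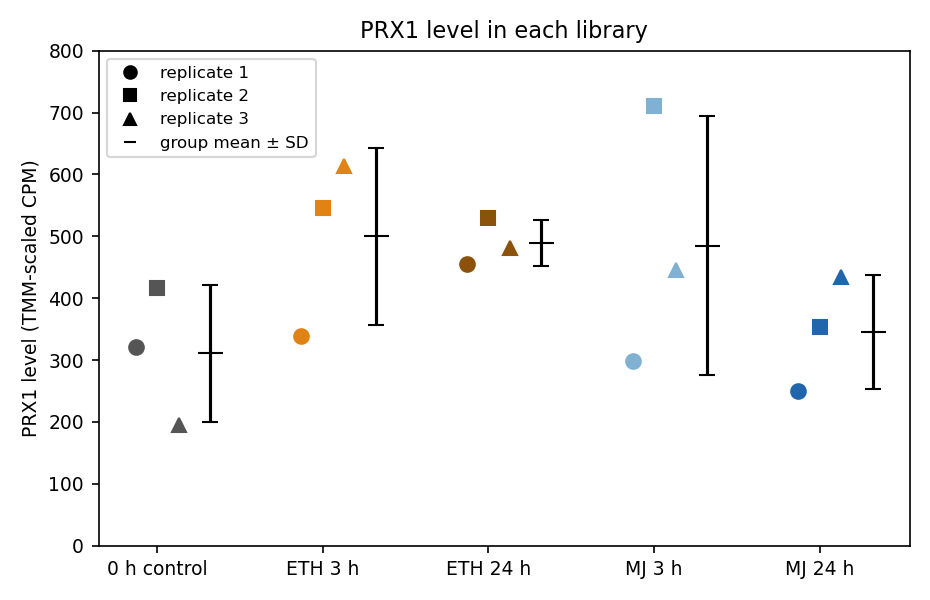
PRX1 level in each of the 15 libraries (vertical axis, TMM-scaled CPM) by group (horizontal axis), with the symbol giving the replicate number and the bar giving the group mean ± SD (n = 3). The ETH 24 h libraries lie between 456 and 529 CPM, above the 3 controls, while MJ 3 h spreads from 299 to 711 CPM.

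Ordered by mean level, ETH 3 h came first (499.8 ± 143 CPM, SD, n = 3), followed by ETH 24 h (489 ± 37.2), MJ 3 h (485 ± 209), MJ 24 h (346 ± 91.9) and the 0 h control (311 ± 111). No neighbours in this order differed beyond their spread. Exact two-sided permutation tests gave p = 1.0 for ETH 3 h against ETH 24 h, p = 0.7 for ETH 24 h against MJ 3 h, p = 0.4 for MJ 3 h against MJ 24 h and p = 0.6 for MJ 24 h against 0 h, where 0.1 is the smallest p that 3 against 3 libraries can give. The coefficient of variation ran from 7.61% in ETH 24 h to 43.1% in MJ 3 h.

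The spread of PRX1 among libraries of 1 group was compared with that of other genes. The pooled within-group SD of log2 CPM was 0.46, against a median of 0.27 over the 18008 genes tested and 0.36 over the 500 genes nearest to PRX1 in mean level. It was larger than the SD of 76.7% of all tested genes and of 69.6% of those 500 genes. The biological coefficient of variation estimated by edgeR was 0.306 for PRX1, below the common value of 0.342.

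Relative to 0 h, the PRX1 estimates were above 0 in all 4 treated groups, and none of these differences passed the edgeR test. The estimate for MJ 24 h turned negative without control replicate 3 (-0.094) or MJ 24 h replicate 3 (-0.043). The 0 h mean of 311 CPM compared with 499.8 CPM in ETH 3 h, a log2 fold change of 0.68 (SE 0.35, 95% interval -0.08 to 1.45, adjusted p = 0.201, edgeR quasi-likelihood test with Benjamini-Hochberg adjustment). In ETH 24 h the log2 fold change was 0.65 (SE 0.35, interval -0.11 to 1.41, edgeR adjusted p = 0.345). For MJ 3 h it was 0.64 (SE 0.35, interval -0.12 to 1.40, edgeR adjusted p = 0.193), and for MJ 24 h it was 0.15 (SE 0.35, interval -0.61 to 0.91, edgeR adjusted p = 0.871). Without control replicate 3 the estimates were 0.42 for ETH 3 h, 0.38 for ETH 24 h and 0.38 for MJ 3 h. Without control replicate 2 the same estimates were 0.93, 0.90 and 0.89. Without MJ 3 h replicate 2 the MJ 3 h estimate was 0.25. The upper bounds leave room for a fold change of 2.72 in ETH 3 h and 1.88 in MJ 24 h. A call needed a fold above 1.5 in either direction besides an adjusted p below 0.05, a rule met by 11.9% of tested genes in ETH 3 h, 2.18% in ETH 24 h, 20.8% in MJ 3 h and 0.0278% in MJ 24 h.

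The libraries of ETH 24 h did not overlap with those of 0 h, the lowest being 456 CPM and the highest control 416 CPM. In the same comparison 19% of tested genes were higher without overlap. ETH 24 h also lay above MJ 24 h without overlap (456 against 434 CPM), as did 15% of tested genes. The exact permutation p was 0.1 for both, the smallest possible, and adjusted over 10 pairs of groups it was 0.5.

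When both times were pooled, the ETH libraries stood above the controls by 0.67 on the log2 scale (SE 0.31, interval -0.01 to 1.34), which is a fold of 1.59. The edgeR p was 0.0527, and 0.188 after adjustment over all genes, in a comparison where 7.86% of genes were called. An exact permutation test over the 84 ways of dividing these 9 libraries gave a difference in mean log2 CPM of 0.71 with two-sided p = 0.0238, and 0.0714 after adjustment over 3 such tests. For pooled MJ the log2 fold change was 0.40 (SE 0.31, edgeR adjusted p = 0.434, 7.18% of genes called), and the exact permutation p was 0.333. Without control replicate 3 the pooled MJ estimate was 0.14, without control replicate 2 it was 0.65, and without MJ 3 h replicate 2 it was 0.20. The joint test of all 4 treated groups gave an edgeR adjusted p of 0.323, and 32.2% of genes passed it.

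The pooled ETH call depended on the method, and the size of the estimate on which control libraries were kept. With limma voom and quality weights, which give less weight to libraries that depart from their group across all genes, it was 0.70 (SE 0.16) with an adjusted p of 0.00414, and PRX1 was called. ETH 3 h (log2 fold change 0.80, limma voom adjusted p = 0.0136) and ETH 24 h (0.61, limma voom adjusted p = 0.0181) were then called as well. With DESeq2 the pooled estimate was 0.65 with an adjusted p of 0.125. Without the third control library, which held the lowest PRX1 level, the edgeR estimate dropped to 0.40 (SE 0.32, edgeR adjusted p = 0.556). Without the second, the highest of the controls, the edgeR estimate rose to 0.92 (SE 0.35, edgeR adjusted p = 0.12).

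**Figure D2:**
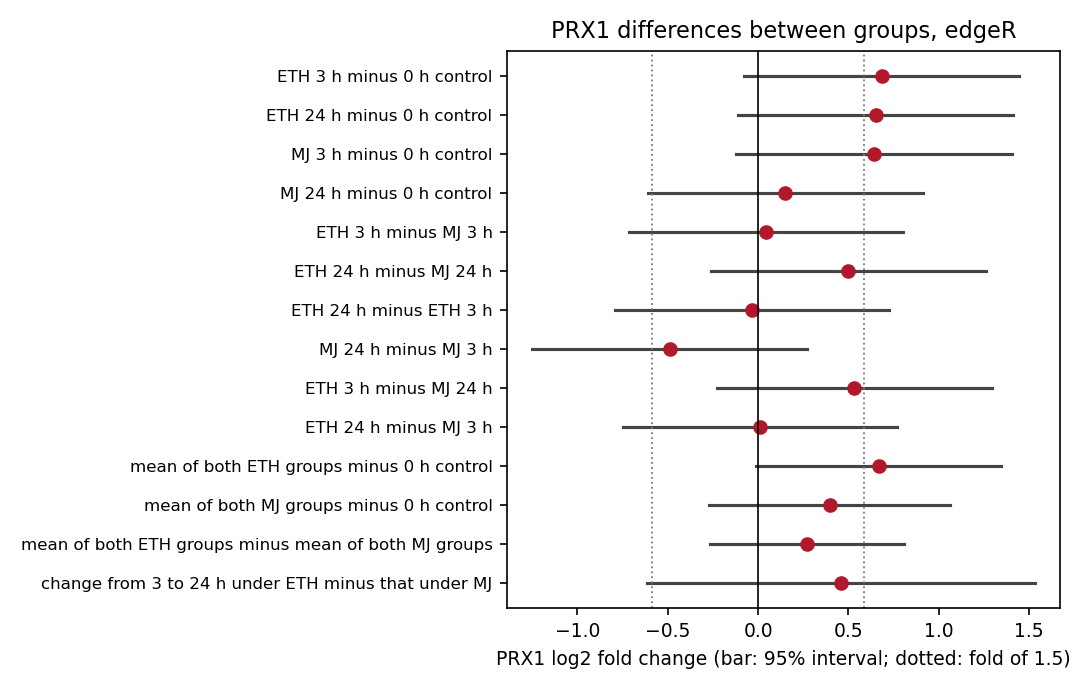
PRX1 log2 fold change (points, horizontal axis) with its 95% interval (bars) from edgeR for 14 comparisons (rows), with dotted lines at a fold of 1.5 in either direction. Every interval includes 0, and that of pooled ETH against 0 h, from -0.01 to 1.34, comes closest to leaving it.

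The hormones were compared directly at matched dose and time. At 3 h PRX1 was at similar mean levels under ETH and MJ (499.8 and 485 CPM), with a log2 difference of 0.04 (SE 0.35, interval -0.72 to 0.80, edgeR adjusted p = 0.964, 6.89% of genes called). At 24 h the means were 489 and 346 CPM, a log2 difference of 0.50 (SE 0.35, interval -0.26 to 1.26, edgeR adjusted p = 0.569, 1.04% of genes called). The intervals span differences of more than 1.5-fold, so they do not show that the hormones acted alike on PRX1.

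Under ETH the PRX1 means at 3 h and 24 h were 499.8 and 489 CPM (log2 difference -0.03, SE 0.35, interval -0.79 to 0.73, edgeR adjusted p = 0.969, 3.62% of genes called). Under MJ it was lower at 24 h than at 3 h by an estimate of -0.49 (SE 0.35, edgeR adjusted p = 0.334), where 16.4% of genes were called. The difference between these time courses was 0.46 (SE 0.49, edgeR adjusted p = 0.723, 3.3% of genes called). Without MJ 3 h replicate 2, the highest PRX1 library, the MJ difference was -0.10 and the difference between the time courses was 0.063. The latter was 0.25 without either ETH 3 h replicate 1 or MJ 24 h replicate 1, and 0.70 without MJ 3 h replicate 1. The MJ difference was -0.29 without MJ 24 h replicate 1. Averaged over both times, ETH minus MJ was 0.27 (SE 0.25, edgeR adjusted p = 0.585, 4.49% of genes called). The exact permutation test within time gave p = 0.245 over 400 divisions of the 12 treated libraries.

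Some markers of leaf tissue ran against PRX1 from library to library. The summed level of 4 leaf chloroplast markers (PSAF, a photosystem subunit, with CH1, CLPR1 and HCF107) ran from 1628 to 6604 CPM over the 15 libraries and was mostly PSAF (mean 2783 CPM, against 123 to 313 CPM for the others). The third control library had the highest sum (6604 CPM) and the lowest PRX1 level (196 CPM). The second MJ 3 h library had the lowest sum (1628 CPM) and the highest PRX1 level (711 CPM). PSAF correlated with PRX1 at Pearson r = -0.85 (permutation p = 0.0001, adjusted p = 0.00135 over 54 genes) and Spearman rho = -0.83 (permutation p = 0.00042) over 15 libraries. The r was -0.74 without the 2 libraries farthest from the PRX1 median and -0.85 after the group means were subtracted (exact permutation within groups, adjusted p = 0.0169). Of the other markers, CH1 had r = -0.63 (rho -0.57, adjusted permutation p = 0.0452) and -0.43 without the 2 farthest libraries, while HCF107 (r = -0.46, rho -0.36) and CLPR1 (r = -0.21, rho -0.28) did not pass. CLPR1 turned to r = 0.26 after the group means were subtracted and to 0.29 without those 2. All 4 chloroplast markers were present in each group of these leaf samples, with group means of at least 97.6 CPM.

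A list of 10 markers of young or dividing tissue, such as the AINTEGUMENTA genes ANT-a and ANT-b, the stomatal lineage factor SPCH and the chromatin protein HMGA, set a pair of libraries apart. Its summed level was 15.9 to 48.9 CPM in 13 libraries, 203 CPM in the first ETH 3 h library and 308 CPM in the first MJ 3 h library. These were the libraries with the lowest PRX1 level of their groups (339 and 299 CPM). Without both, the log2 fold changes against 0 h were 0.87 for ETH 3 h (edgeR adjusted p = 0.0693) and 0.87 for MJ 3 h (edgeR adjusted p = 0.0542). The part of leaf age or cell makeup in the PRX1 differences was not tested. In bulk leaf RNA, fewer cells of a type and less RNA per cell cannot be told apart.

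**Figure D3:**
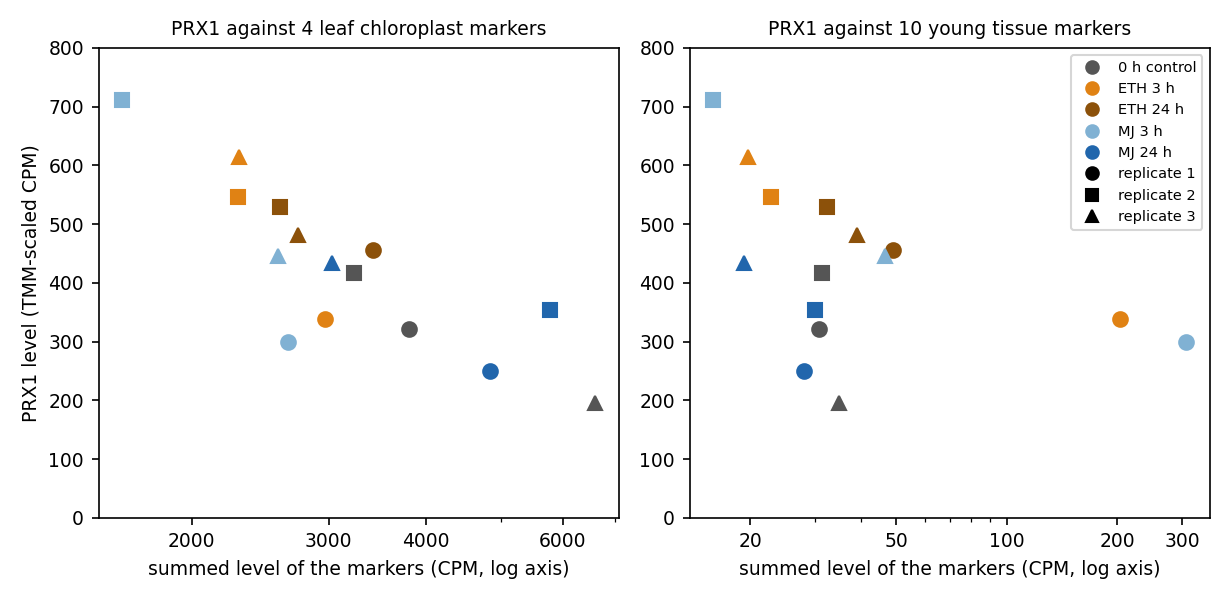
PRX1 level (vertical axes, CPM) against the summed level of 4 leaf chloroplast markers (left) and of 10 young tissue markers (right), both on log axes in CPM, for the 15 libraries, with colour giving the group and symbol giving the replicate. PRX1 runs from 711 CPM at the lowest chloroplast sum to 196 CPM at the highest, and the libraries at 203 and 308 CPM of young tissue markers are the first libraries of their 3 h groups.

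The catharanthine branch supplies one of the substrates of PRX1. GO (geissoschizine oxidase), CS (catharanthine synthase) and TS (tabersonine synthase, which feeds the vindoline side from the same intermediate) were all tested, and edgeR called 0 of the 3 against 0 h in any treated group. At an unadjusted p under 0.05 there were 3 in ETH 3 h, 1 in ETH 24 h and 0 in each MJ group. Of all 18008 tested genes, 5765 met this threshold in ETH 3 h and 3374 in ETH 24 h. In MJ 3 h and MJ 24 h, 7264 and 2176 did. DESeq2 called 2 in ETH 3 h (CS and TS), and limma voom called all 3 there and 2 in ETH 24 h (GO and CS). Of all 18008 tested genes DESeq2 called 2797 in ETH 3 h, and limma voom called 3975 there and 2765 in ETH 24 h. The median log2 fold change of GO, CS and TS was 1.16 in ETH 3 h and 0.92 in ETH 24 h, against 0.05 and -0.01 over all tested genes. It was 0.30 in MJ 3 h and -0.17 in MJ 24 h.

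GO, like PRX1, had higher mean levels in both ETH groups than at 0 h. It stood at 12.6, 13.4 and 7.64 CPM in the controls, 20.6, 15.6 and 24.4 CPM in ETH 3 h and 21.4, 21.4 and 20.9 CPM in ETH 24 h. Unlike PRX1, GO was higher in every ETH library than in every control, as were 7.9% of tested genes. The log2 fold changes were 0.84 (SE 0.32, edgeR adjusted p = 0.0909) and 0.92 (SE 0.32, edgeR adjusted p = 0.155). The third control library was lowest for GO among the controls, as it was for PRX1.

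TS stood at 813, 1268 and 392 CPM in the controls and 1842, 1946 and 1742 CPM in ETH 3 h, with no overlap, as for 17.8% of tested genes (log2 fold change 1.16, SE 0.39, edgeR adjusted p = 0.0617). CS was barely expressed, at 0.40 ± 0.07 CPM in the controls and 1.19 ± 0.40 CPM in ETH 3 h (SD, n = 3). It was higher in ETH 3 h than in MJ 3 h by 1.91 on the log2 scale and was called there, a call that was lost in the fit of those groups alone (edgeR adjusted p = 0.301) and without replicate 2 or 3 of either group (edgeR adjusted p of 0.064 to 0.143).

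PRX1 and GO were also compared within each library. The log2 ratio of their levels averaged 4.77 ± 0.16 in the controls, 4.61 ± 0.55 in ETH 3 h, 4.52 ± 0.11 in ETH 24 h, 4.97 ± 0.68 in MJ 3 h and 5.30 ± 0.40 in MJ 24 h (SD, n = 3). The absolute value depends on gene length, so only its differences between groups can be read, and those against 0 h ran from -0.25 to 0.53. For ETH they were -0.16 and -0.25.

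The vindoline pathway supplies the other substrate. Of its 6 genes measured, which are the hydroxylase T16H1/2, the methyltransferases T16OMT and NMT, the oxygenase T3O, the reductase T3R and the hydroxylase D4H, edgeR called 0 against 0 h in any treated group, and 0 had an unadjusted p under 0.05. DESeq2 also called 0, and limma voom called 1 in ETH 3 h and 1 in ETH 24 h. Of all 18008 tested genes limma voom called 3975 and 2765 in those groups. The median log2 fold change of the 6 genes was -0.48 in ETH 3 h, -0.40 in ETH 24 h, 0.62 in MJ 3 h and -0.84 in MJ 24 h. Among the 6, T3O was barely expressed, with group means of 0.15 to 0.41 CPM. D4H stood at 199 ± 62.9 CPM in the controls, 107 ± 15.8 CPM in ETH 24 h and 305 ± 116 CPM in MJ 3 h (SD, n = 3). Between those treated groups D4H differed by -1.51 on the log2 scale (ETH 24 h minus MJ 3 h) and was called, as were 18.7% of genes.

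Within groups, the vindoline genes ran against PRX1. After the group means were subtracted, r with PRX1 was -0.90 for T16OMT, -0.89 for T3R, -0.86 for T16H1/2 and -0.84 for NMT, each passing an exact permutation within groups after adjustment over 54 genes (adjusted p = 0.00694 to 0.0134). T3O (-0.66, barely expressed) and D4H (-0.68) did not pass. The young tissue markers did the same, with 7 of 10 passing and all 10 negative (r from -0.85 to -0.47). These correlations are common in these libraries, since 28.1% of the 18007 other tested genes had an absolute within-group r at least as large as the weakest that passed (0.74). T16OMT, T3R, T16H1/2 and NMT were highest of their groups in the first ETH 3 h and MJ 3 h libraries, set apart above. T16OMT stood at 141 CPM there in ETH 3 h, against 31.7 and 29.7. In MJ 3 h it stood at 258 CPM, against 54.2 and 157. Within-group correlations without those libraries were not computed.

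**Figure D4:**
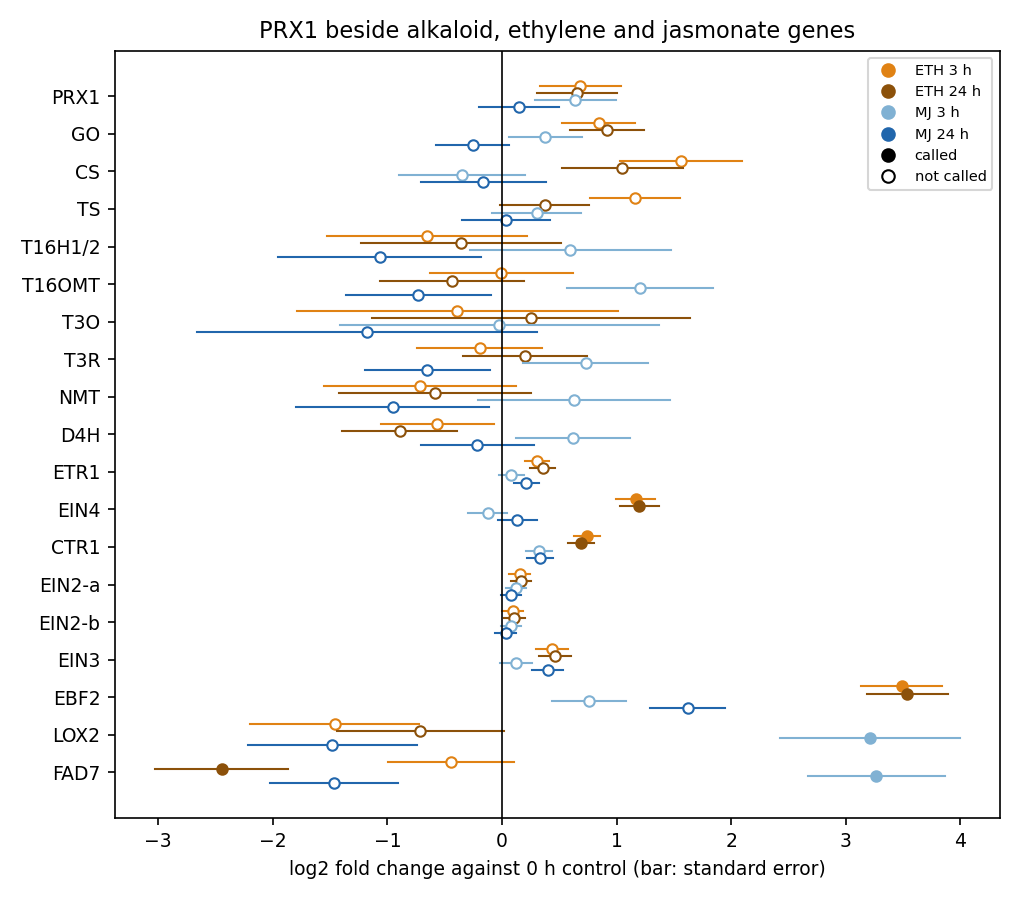
Log2 fold change against the 0 h control (horizontal axis, bars give the standard error) for PRX1, the catharanthine and vindoline genes, ethylene signalling genes and 2 jasmonate markers (rows), with colour giving the treated group and filled points the called genes. PRX1 lies at 0.65 to 0.68 in ETH with open points, while EBF2 lies at 3.49 and 3.54 and is called.

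Some genes of ethylene signalling rose in the same ETH libraries. In Arabidopsis, ETR1 and EIN4 are receptors, CTR1 is the kinase that holds the pathway off, EIN2 passes the signal on, EIN3 is the transcription factor at its end and EBF2 is the F-box protein that removes EIN3. Of 7 genes tested, 3 rose in ETH 3 h and the same 3 rose in ETH 24 h (EIN4, CTR1 and EBF2), where 4.76% and 1.33% of all genes were called higher. All of the list but EBF2 are also neighbours of PRX1 in a gene network that the study built on these same libraries. The count is therefore not independent of the choice of the list, and EIN4 and CTR1 return among the neighbours below. The median log2 fold change of the list was 0.44 and 0.46. EBF2 stood at 381, 434 and 270 CPM in the controls and at 3927, 4110 and 4129 CPM in ETH 3 h (log2 fold change 3.49, SE 0.35, edgeR adjusted p = 0.000298). In ETH 24 h it stood at 3974, 4208 and 4396 CPM (log2 fold change 3.54). EIN4 rose by 1.16 and 1.20, and CTR1 by 0.74 and 0.69. The PRX1 estimates in ETH (0.68 and 0.65) were close in size to those of CTR1, whose SE was 0.11 against 0.35 for PRX1. In MJ 3 h and MJ 24 h edgeR called 0 of the 7, against 20.8% and 0.0278% of all genes. DESeq2 called 1 of the 7 in each, and limma voom called 1 in MJ 24 h. Of all 18008 tested genes DESeq2 called 4339 and 247, and limma voom called 912. EBF2 stood at 759, 899 and 1679 CPM in MJ 24 h. EIN3 averaged 736 CPM there, against 559 CPM in the controls and 758 and 769 CPM in the ETH groups.

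Both jasmonate markers rose in MJ 3 h, where 9.55% of all genes were called higher. LOX2, a lipoxygenase of jasmonate synthesis, rose by 3.21 (SE 0.78, edgeR adjusted p = 0.0099) and FAD7, a plastid fatty acid desaturase, by 3.27 (SE 0.60, edgeR adjusted p = 0.00215). LOX2 was not called with limma voom (adjusted p = 0.145). In MJ 24 h edgeR called neither LOX2 nor FAD7, with estimates of -1.48 and -1.47, and 1 had an unadjusted p under 0.05. That threshold was met by 2176 of the 18008 tested genes there. With limma voom FAD7 was called lower there (-1.42, adjusted p = 0.0273), and DESeq2 called neither.

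The study placed PRX1 in a gene network built on these same libraries, so its 23 neighbours there are not independent of the values given here. In ETH 3 h 4 of the 23 rose (EIN4, CTR1, RAP2.12 and MYB5), where 4.76% of all genes were called higher, with a median log2 fold change of 0.42 against 0.05 over all genes. In ETH 24 h 3 rose (EIN4, CTR1 and RAP2.12), where 1.33% of all genes did. In MJ 3 h 2 of 23 rose (RAP2.12 and MYB5), a share near the 9.55% of all genes. In MJ 24 h edgeR, DESeq2 and limma voom called 0 of them, and 3 had an unadjusted p under 0.05 with edgeR. That threshold was met by 2176 of the 18008 tested genes there. DESeq2 and limma voom called 7 and 8 of the 23 in either direction in ETH 3 h, and 4 and 7 in ETH 24 h. Of all 18008 tested genes they called 2797 and 3975 in ETH 3 h, and 1129 and 2765 in ETH 24 h. RAP2.12, an ethylene response factor known in Arabidopsis for its part in low-oxygen responses, stood at 226 ± 34.7 CPM in the controls and 743 ± 56.7 CPM in ETH 3 h (SD, n = 3). Its log2 fold change was 1.72 (SE 0.15, edgeR adjusted p = 0.000183). The ETH 3 h call of MYB5 was lost without control replicate 2 or 3 or ETH 3 h replicate 1 or 2 (edgeR adjusted p of 0.059 to 0.13). Its MJ 3 h call was lost without control replicate 2 or 3 or any single MJ 3 h library (edgeR adjusted p of 0.078 to 0.174).

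Across the 15 libraries, PRX1 correlated with 13 of 54 listed genes at an adjusted permutation p under 0.05, and 10 of these correlations were positive. All 10 positive ones, GO and TS among them, were with neighbours of PRX1 in the network. That network was built on these same libraries, so the p-values of its neighbours are not independent of how they were chosen. For comparison, 19.1% of the 18007 other tested genes had an absolute r at least as large as the weakest of the 13 (0.63). The correlations with GO (r = 0.68, rho = 0.65) and TS (r = 0.65, rho = 0.56) had adjusted permutation p of 0.0292 and 0.0405. They fell to 0.37 and 0.31 without the third control library and the first MJ 24 h library, the 2 farthest from the PRX1 median, whose removal also narrows the range of PRX1. They were 0.80 and 0.81 without the first libraries of ETH 3 h and MJ 3 h.

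The 10 named genes most like PRX1 over the 15 libraries were taken by Pearson r of log2(CPM + 0.5). HSFA1D, a heat shock factor, had r = 0.91, CrbZIP1 had r = 0.91, WRKY65 had r = 0.88, HSI2 had r = 0.87 and WRKY69 had r = 0.85. IWS2 (0.84), WRKY4 (0.83), PBG1 (0.80), SNX1 (0.80) and UBC29 (0.78) completed the 10. Names were paired with 312 of the identifiers, so genes without a name could not enter this list. From HSFA1D to WRKY4, the names came from the study's networks of transcription factors and pathway genes. Those networks were built on these same libraries, so the place of such factors in this list is not independent of them. HSFA1D ranked at place 24 and WRKY65 at place 64 among the 18007 genes. Over all of these genes the median r was 0.04 and the 95th percentile was 0.72.

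The gene most like PRX1 of all was CRO_020133, with r = 0.995 over 15 libraries and 0.994 after the group means were subtracted. No name or function is paired with it in the sources used here. Its raw counts followed those of PRX1 in a nearly fixed proportion, from 1760 against 4358 reads in the third control library to 8176 against 20024 reads in the second MJ 3 h library. The ratio of PRX1 to CRO_020133 reads was 2.49 ± 0.08 (SD, n = 15) and ran from 2.39 to 2.65 over all groups. The next gene, CRO_030969, had r = 0.95. Whether PRX1 and CRO_020133 share sequence or reads was not tested, since neither sequence was at hand, and the PRX1 counts carry that uncertainty. After the group means were subtracted, CRO_000108 came second with r = 0.99.

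**Figure D5:**
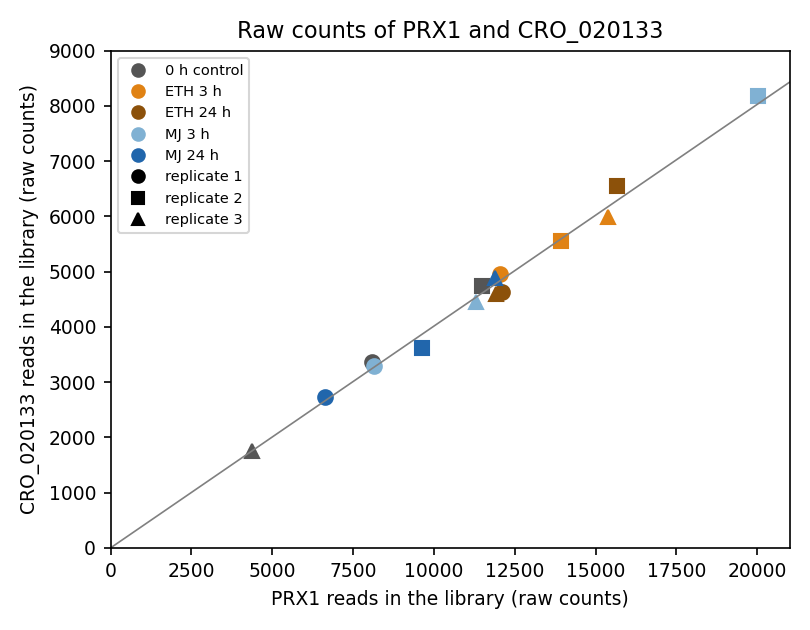
Raw read counts of PRX1 (horizontal axis) and of CRO_020133 (vertical axis) in the 15 libraries, with colour giving the group, symbol giving the replicate and a grey line at the mean ratio of 2.49. The libraries lie along the line from 4358 to 20024 PRX1 reads, with ratios between 2.39 and 2.65.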

How the data were processed

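RNA of 15 leaf samples was sequenced as stranded paired reads of 150 bp. The authors aligned reads with HISAT2 (version 2.0.4, per the submitters' processing notes) and then deposited the raw counts of HTSeq for 33829 genes. Neither the strand setting nor the choice among the named genome sources is stated. Reads of antisense or near-identical genes may therefore not be separated. The extraction text of the labels names an animal tissue and was not used.

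Samples were grouped by their labels. Tests were run with edgeR 4.0.16 under R 4.3.3 (filterByExpr, 18008 genes kept; TMM factors 0.888 to 1.14; quasi-likelihood fit of 5 group means over 15 libraries, Benjamini-Hochberg adjustment over all genes tested). Totals had a median of 26443250. PRX1, every listed gene, the 10 named genes of highest r and the 2 identifiers of highest r (mean of at least 1 CPM) were named. PRX1 and the lists were chosen with earlier results of these data known. Exact permutation tests used TMM-scaled log2 CPM. Correlations used log2(CPM + 0.5) and 100000 resamples in Python 3.11.15 with scipy 1.17.1. For correlations after subtracting group means, libraries were reordered within groups, a choice made after a reordering across groups had been run. DESeq2 1.42.0 and limma 3.58.1 served as alternatives, beside other scalings, filters, fold thresholds, a replicate term and left-out libraries. The edgeR code was tested on simulated data.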

Additional observations from a re-analysis of the deposited data

Results flagged for a closer look

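Among PRX1 and the listed genes, the time course differed between the hormones for LOX2, the jasmonate marker. The ETH change between the sampling times exceeded the MJ change by 5.44 on the log2 scale (SE 1.09, edgeR adjusted p = 0.0208). LOX2 stood at 112 and 189 CPM in ETH 3 h and ETH 24 h, and at 2852 and 111 CPM in MJ 3 h and MJ 24 h. The same difference for PRX1 was 0.46 (SE 0.49) and did not pass.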

How the results depend on the processing

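Over the 18 PRX1 comparisons, 340 values were computed under alternatives, of which 319 kept direction and side of the threshold, 4 gained a call and 17 changed sign without a call. The 319 include the other fold thresholds, which reuse the main estimates and could not change a call, since no main adjusted p was below 0.05. The 4 gained calls came from limma voom with quality weights, with log2 fold changes of 0.80 for ETH 3 h, 0.61 for ETH 24 h and 0.70 for pooled ETH against 0 h, and an adjusted p of 0.0134 for the joint test. Its library weights ran from 0.247 (first ETH 3 h library) to 6.71 (first control library). Leaving out 1 library at a time moved MJ 24 h against 0 h between -0.094 and 0.41, ETH 3 h against MJ 3 h between -0.20 and 0.41, ETH 24 h against ETH 3 h between -0.23 and 0.14, and ETH 24 h against MJ 3 h between -0.23 and 0.38. With both first libraries of the 3 h groups left out, ETH 3 h minus MJ 3 h was -0.00103 and ETH 24 h minus MJ 3 h was -0.23. Without the third control and the second MJ 3 h library, an alternative added after seeing the data, MJ 24 h minus 0 h was -0.094 and pooled MJ minus 0 h was -0.044. The cause of these shifts was not tested. Whether replicate numbers pair the libraries was not settled. Of 30 pairs with the same number, 15 correlated above 0.1 (median 0.11, from -0.64 to 0.76). Of 60 pairs with different numbers, 24 did (median -0.07, from -0.80 to 0.76). With a replicate block, pooled ETH against 0 h was 0.66, ETH 24 h minus ETH 3 h turned to 0.000465, and no PRX1 call changed. The 13 correlations with listed genes became 8 on linear CPM, 18 after subtracting group means, and 31 when those values were reordered across groups. Counts of listed genes called against 0 h, without the network neighbours, went from 4 to 8 (DESeq2) and 11 (limma voom) in ETH 3 h, from 4 to 9 (limma voom) in ETH 24 h, and from 0 to 1 (DESeq2) and 3 (limma voom) in MJ 24 h. For ETH 24 h against MJ 24 h they went from 2 to 5 (DESeq2) and 6 (limma voom). Counts over all 18008 tested genes rose as well, from 2144 to 2797 (DESeq2) and 3975 (limma voom) in ETH 3 h. In ETH 24 h they went from 393 to 2765 (limma voom), and in MJ 24 h from 5 to 247 (DESeq2) and 912 (limma voom). For ETH 24 h against MJ 24 h the counts over all genes were 187, 803 (DESeq2) and 1654 (limma voom). Counting intervals of PRX1 were narrow beside the SE of 0.35 of its differences, which rest on 3 libraries a group.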

Other observations

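Other redox enzymes gave no common pattern with PRX1. Of 4 tested, GSTT1, a glutathione transferase, fell in ETH 3 h (log2 fold change -0.98, SE 0.17, edgeR adjusted p = 0.00437) and in MJ 3 h (-1.11, SE 0.17, edgeR adjusted p = 0.000902), from 114 ± 26.3 CPM in the controls to 58.1 ± 6.71 and 53.0 ± 6.33 CPM (SD, n = 3). All genes were called in either direction at a rate of 11.9% in ETH 3 h and 20.8% in MJ 3 h. GSTT1 was not called in ETH 24 h (-0.11) or MJ 24 h (-0.39). The ascorbate peroxidase APX3 stood at 252 ± 30.4 CPM in the controls and 187 ± 48.5 CPM in MJ 3 h, and was not called. RCI3, named after an Arabidopsis peroxidase, was at 1.55 CPM in the controls. It correlated negatively with PRX1 over 15 libraries (r = -0.65, rho = -0.71, permutation p = 0.00869, adjusted p = 0.0405 over 54 genes). An absolute r of 0.63 or more was reached by 19.1% of the 18007 other tested genes. AT3G56350, the last of the 4, was barely expressed (0.50 CPM in the controls). Its correlation with PRX1 did not pass (r = -0.29, adjusted permutation p = 0.401).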
